A study of Mus musculus with 9 samples.

Results

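Antimicrobial proteins kill, starve or restrain microbes at the skin surface, and 9 mouse genes that encode such proteins were followed in ear skin 6 h after a compound was applied to it. The genes were the beta-defensin genes Defb1, Defb3, Defb4 and Defb6, the cathelicidin gene Camp, Ngp, Ltf, Slpi and Lyz2. Every probe set that the array annotation gave to one of these symbols alone was taken, which made 10 probe sets for the 9 genes, out of 18193 genes with a probe set of their own. The groups were ear skin treated with DNFB (dinitrofluorobenzene, labelled an allergen), ear skin treated with BAC (benzalkonium chloride, labelled an irritant) and ear skin given the vehicle, acetone with olive oil, with 3 arrays each. All ears came from C57BL/6 mice, whose age and sex, like the doses, the sources used here do not give. DNFB and BAC were applied to right ears and vehicle to left ears, so that side and treatment cannot be told apart in the comparisons with the vehicle, while DNFB and BAC are compared on the same side. Nothing in the labels says that replicates were separate animals, and p-values then cover only the spread of these samples, which may be a technical one.

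Beta-defensins are small cationic peptides, held together by disulphide bonds, that epithelial cells release and that damage microbial membranes. Some are made by resting epithelium, while others are known to be induced by microbes or cytokines. Cathelicidin, neutrophilic granule protein and lactoferrin are stored in the granules of neutrophils, and their genes are transcribed mainly while these cells mature in the bone marrow. Slpi encodes a protease inhibitor of epithelium and leukocytes that blocks neutrophil elastase, and Lyz2 encodes the lysozyme of macrophages and neutrophils, which cleaves bacterial cell walls.

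The defensin genes lie on chromosome 8 (GRCm38.p6), Defb4 at chr8:19198704-19201547, Defb6 at chr8:19225478-19228209, Defb3 at chr8:19293361-19295339 and Defb1 at chr8:21776555-21795185. The RefSeq promoter table of that build held 7 of the 9 genes, all but Defb1 and Defb4. The promoters of Defb6 and Defb3 are shown because these neighbouring genes have similar upstream sequence. Defb6 lay above the level used to leave out dim genes in all 9 arrays and Defb3 in 1 array. Different probe sets read these genes, so this does not show which gene had more RNA. Each line gives the 250 bases before the start on the plus strand, at chr8:19225228-19225477 for Defb6 and chr8:19293111-19293360 for Defb3. Capitals mark bases that differ from the other sequence, or have no partner in it, in a global alignment.
Defb6: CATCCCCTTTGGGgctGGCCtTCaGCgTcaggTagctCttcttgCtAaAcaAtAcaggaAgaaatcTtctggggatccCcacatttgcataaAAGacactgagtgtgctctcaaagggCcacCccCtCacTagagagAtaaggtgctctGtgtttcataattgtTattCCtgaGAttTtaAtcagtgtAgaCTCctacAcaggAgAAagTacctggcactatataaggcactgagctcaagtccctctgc
Defb3: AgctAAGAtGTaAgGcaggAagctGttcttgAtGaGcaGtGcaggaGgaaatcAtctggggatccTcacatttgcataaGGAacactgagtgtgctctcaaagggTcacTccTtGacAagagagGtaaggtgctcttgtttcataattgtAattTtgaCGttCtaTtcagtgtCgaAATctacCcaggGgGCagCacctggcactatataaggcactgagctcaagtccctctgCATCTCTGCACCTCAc
In that alignment 192 of 250 bases were identical (76.8%), against 49.6% to 58% in the other 20 pairs among the 7 promoters. Both hold the letters TATAA on the strand of the gene, 29 to 25 bases before the start in Defb6 and 44 to 40 bases before it in Defb3, as do 5255 of 32851 mouse promoters cut to the same length. The NF-kB consensus, searched on both strands, was found in Defb6 at 180 to 171 bases before the start and in none of the other 6, and 7.25% of all promoters hold it. The AP-1 letters TGANTCA, searched on both strands, were in 0 of the 7 and in 6.75% of all promoters.

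The promoters of Slpi and Lyz2 are shown because these are the genes among the 9 that rose after BAC. They are the 250 bases before the start on the minus strand, at chr2:164356508-164356757 for Slpi and chr10:117282273-117282522 for Lyz2. Capitals mark matches to the C/EBP letters TTNNGNAA on either strand.
Slpi: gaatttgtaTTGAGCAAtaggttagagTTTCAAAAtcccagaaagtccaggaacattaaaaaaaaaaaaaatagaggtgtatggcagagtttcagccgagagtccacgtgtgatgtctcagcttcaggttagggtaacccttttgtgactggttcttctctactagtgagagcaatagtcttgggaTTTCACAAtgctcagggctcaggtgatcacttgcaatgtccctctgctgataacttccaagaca
Lyz2: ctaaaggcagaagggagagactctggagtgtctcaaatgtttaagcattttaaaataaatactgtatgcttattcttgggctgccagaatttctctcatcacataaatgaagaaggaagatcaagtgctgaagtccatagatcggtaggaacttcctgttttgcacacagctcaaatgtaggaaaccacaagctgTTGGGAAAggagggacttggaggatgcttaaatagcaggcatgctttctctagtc
Slpi has 3 such matches and Lyz2 has 1. Of the 7 promoters 6 hold at least 1 match, all but that of Camp, and so do 36.8% of all mouse promoters. A match of letters describes the sequence and does not show a binding site.

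Each array gave 1 MAS5 signal per probe set on a linear scale. Signals of different probe sets cannot be set against each other, so each gene is compared between treatments only. Where the signals of a marker list are summed, the brightest markers weigh most. Log2 changes are on the log2(signal + 16) scale, which understates the changes of dim genes. A gene was tested with limma where its signal exceeded the array's own 40th percentile, a level between 46.2 and 60.7, in at least 3 of the 9 arrays. Defb1, Defb6, Ngp, Ltf, Slpi and Lyz2 were tested, and Defb3, Defb4 and Camp were not. Arrays of one treatment correlated with r from 0.935 to 0.966 and arrays of different treatments with r from 0.925 to 0.948. The actin 3' to 5' ratio, a sign of RNA quality, was 1.09 to 1.28 in DNFB arrays, 1.18 to 1.22 in BAC arrays and 1.05 to 1.10 in vehicle arrays. The Gapdh ratio was 1.36 in DNFB replicate 2 and 0.841 to 0.943 in all other arrays. Neither call made after DNFB among the 9 genes passed without that replicate. Both calls were also lost without DNFB replicate 3, vehicle replicate 1 or vehicle replicate 3. The part of RNA quality in the results was not tested. The number of arrays limits the precision throughout.

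**Figure D1:**
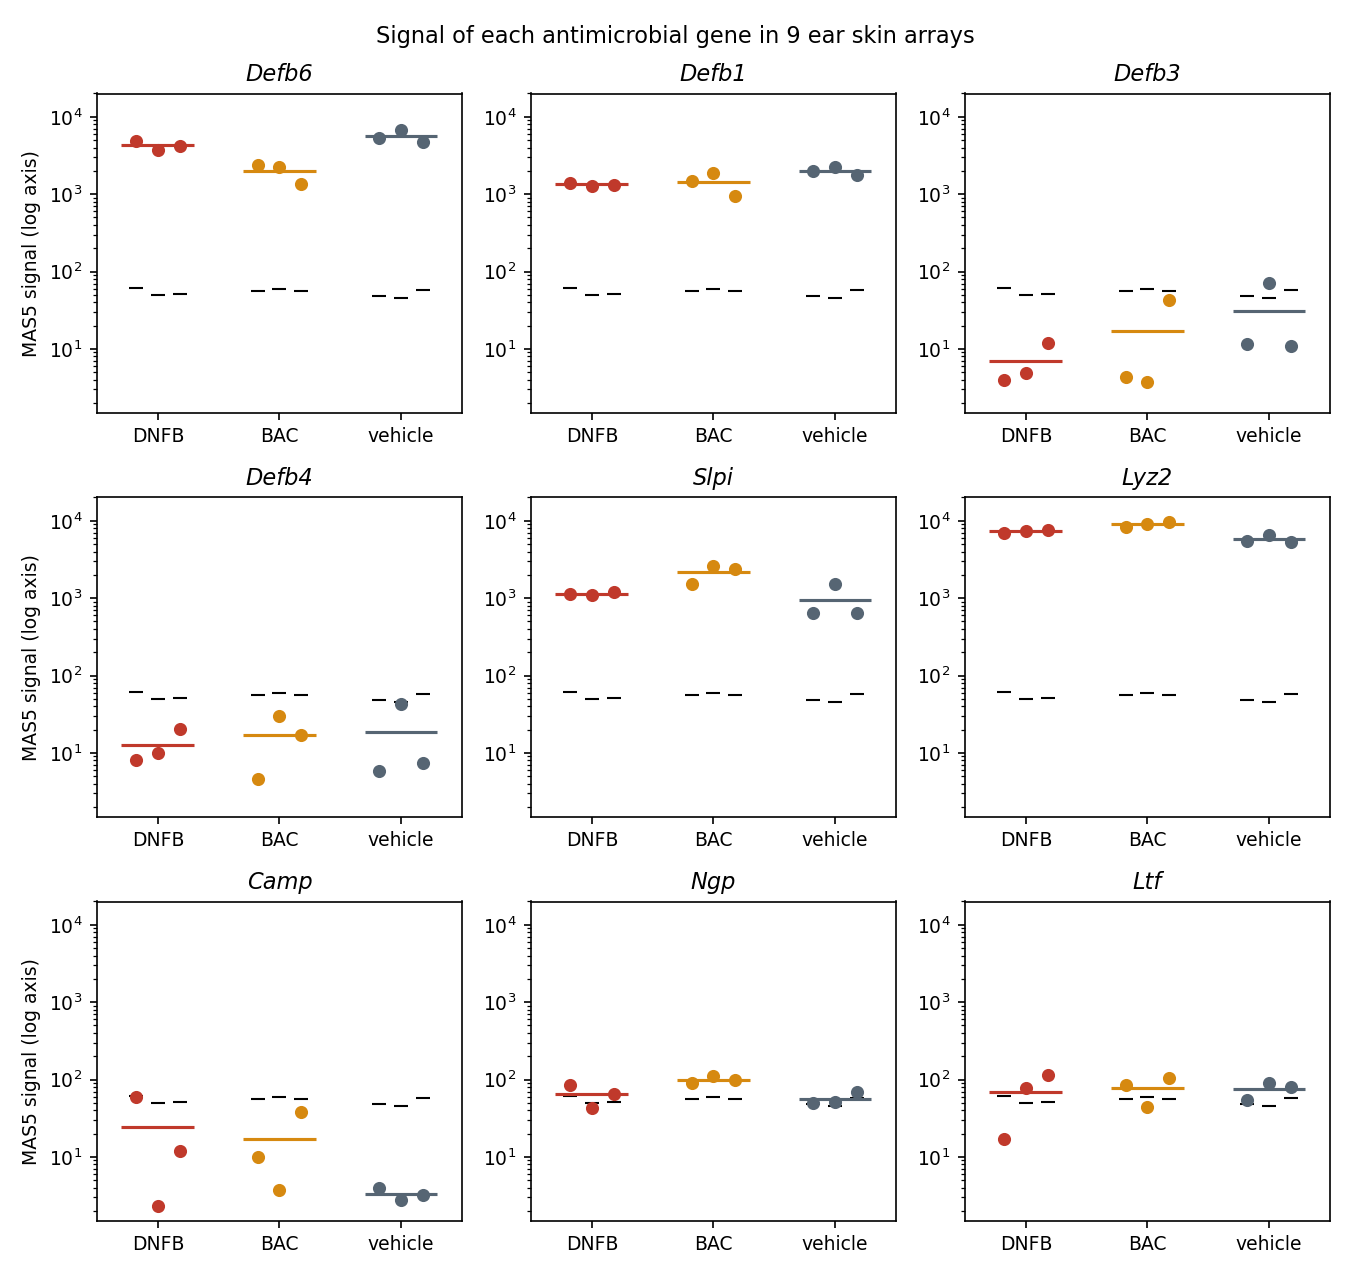
MAS5 signal (log axis) of the 9 genes in each array, with DNFB, BAC and vehicle from left to right; points are single arrays, 3 per treatment, coloured lines are means, black dashes are each array's 40th percentile, and Defb1 is shown by its brighter probe set. Defb6 was lower in all BAC arrays than in all other arrays, Lyz2 was higher in all BAC arrays than in all other arrays, and Defb3, Defb4 and Camp were dim in nearly all arrays.

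After DNFB, 2 of the 6 tested genes passed the test against the vehicle, Defb1 being lower and Lyz2 higher, where 13.8% of all 14122 tested genes passed (6.76% higher and 7.08% lower). After BAC, 3 passed, Defb6 being lower and Slpi and Lyz2 higher, where 14.2% of all tested genes passed (6.59% higher and 7.64% lower). Between DNFB and BAC, 1 passed, Defb6 being higher after DNFB, where 6.8% of all tested genes passed (3.14% higher and 3.66% lower). Groups did not overlap for 30.9% of tested genes between DNFB and vehicle arrays, 34.1% between BAC and vehicle arrays and 25.2% between DNFB and BAC arrays. The calls after BAC, and that of Defb6 between the compounds, were kept in all 19 alternative settings, whereas after DNFB that of Defb1 was kept in 8 and that of Lyz2 in 11 of them. The median log2 change of all tested genes was 0.00 after DNFB, -0.03 after BAC and 0.03 for DNFB against BAC.

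Defb6, a defensin gene known to be expressed in mouse skeletal muscle, fell after BAC. Its signal was 4862, 3696 and 4252 in the DNFB arrays, 2400.1, 2245 and 1342 in the BAC arrays, and 5384, 6723 and 4718 in the vehicle arrays. All BAC arrays lay below all other arrays, while 1 DNFB array lay within the range of the vehicle. Defb6 (Entrez gene 116746) averaged 1996 ± 571 after BAC and 5608 ± 1021 after the vehicle (SD, n = 3 each), a log2 change of -1.51 ± 0.19 (SE) or 0.351 times (limma adjusted p = 5.29e-05). With single arrays left out this change ran from -1.67 to -1.25. After DNFB Defb6 averaged 4270.2 ± 583, a log2 change of -0.39 ± 0.19 that did not pass (limma adjusted p = 0.206), with a 95% interval from -0.78 to 0.01. With single arrays left out it ran from -0.50 to -0.25, the smallest being without vehicle replicate 2. DNFB against BAC gave a log2 difference of 1.13 ± 0.19, or 2.18 times (limma adjusted p = 0.0017). In order of level BAC came lowest, and DNFB and the vehicle, the neighbours above it, did not differ by the test.

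The skeletal muscle markers were measured beside Defb6, since an ear holds muscle. Their summed signal was 26223 to 30906 in DNFB arrays, 20836 to 32434 in BAC arrays and 18498 to 23565 in vehicle arrays. After BAC 0 of the 5 markers passed in limma (2 at an unadjusted p under 0.05), and their median log2 change was 0.33. After DNFB 3 of 5 rose: Acta1, Mylpf and Tnnt3. The shares of all tested genes that rose were 6.76% after DNFB and 6.59% after BAC. In a tissue measured in bulk, fewer cells of a type and less RNA per cell cannot be told apart. The part of muscle in the changes of Defb6 was not tested.

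Defb1 encodes a defensin made by many epithelia at rest, and it was lower after DNFB by a small margin over the threshold. Its brighter probe set read 1402, 1280.2 and 1330.5 in the DNFB arrays, 1474, 1856 and 958 in the BAC arrays, and 1996, 2218 and 1782 in the vehicle arrays. The DNFB arrays lay close together below all vehicle arrays, and the BAC arrays were spread widely, 1 of them inside the vehicle range. Defb1 (Entrez gene 13214) averaged 1337 ± 60.9 after DNFB and 1999 ± 218 after the vehicle (SD, n = 3 each), a log2 change of -0.57 ± 0.18 (limma adjusted p = 0.0435). The call was lost without DNFB replicate 1, 2 or 3 (adjusted p = 0.0781, 0.123 and 0.103), without vehicle replicate 1, 2 or 3 (0.107, 0.124 and 0.0593) and without BAC replicate 1 (0.0522), with changes from -0.65 to -0.49. After BAC Defb1 averaged 1429 ± 451, a log2 change of -0.52 ± 0.18 against the vehicle that did not pass (limma adjusted p = 0.0614). The value was -0.74 and passed without BAC replicate 2 (adjusted p = 0.00977), and it was -0.27 without BAC replicate 3 (adjusted p = 0.247). It also passed with each array centred on its median (-0.61, adjusted p = 0.0421), and was -0.34 as the mean of both probe sets (0.209). DNFB against BAC gave -0.05 ± 0.18, with a 95% interval from -0.42 to 0.33.

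The second probe set of Defb1 read 789, 648 and 633 in the DNFB arrays, 883, 1139 and 727 in the BAC arrays, and 1049, 965 and 1009 in the vehicle arrays. Its DNFB arrays again lay below all vehicle arrays, and its BAC arrays fell on both sides of them. In a fit over all probe sets it changed after DNFB by -0.54 ± 0.15 (limma adjusted p = 0.0322), where the brighter probe set of Defb1 had an adjusted p of 0.0541. After BAC it changed by -0.16 ± 0.15 (limma adjusted p = 0.572), so the probe sets of Defb1 were close for DNFB and apart in size for BAC.

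Keratinocyte markers were measured beside the defensins, which keratinocytes make. Their summed signal was 84924 to 97783 in DNFB arrays, 88980 to 95502 in BAC arrays and 89755 to 104810 in vehicle arrays. Of 9 tested markers 4 fell after DNFB (Krt1, Krt5, Trp63 and Col17a1) and 2 fell after BAC (Krt1 and Col17a1), with median log2 changes of -0.21 and -0.12. Over all tested genes 7.08% fell after DNFB and 7.64% after BAC. The part of keratinocytes in the changes of Defb1 and Defb6 was not tested.

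Defb3 and Defb4, the mouse genes of this set known to be inducible in epithelium, stayed dim. Defb3 (Entrez gene 27358) read 3.95, 4.9 and 11.8 in the DNFB arrays, 4.3, 3.71 and 42.9 in the BAC arrays, and 11.7, 71.4 and 10.8 in the vehicle arrays. Only vehicle replicate 2 lay above the 40th percentile of its array. Defb4 (Entrez gene 56519) read 8.06, 9.9 and 20.3 in the DNFB arrays, 4.62, 30.0 and 17.2 in the BAC arrays, and 5.80, 42.9 and 7.5 in the vehicle arrays. It lay under the 40th percentile in all 9 arrays, and its highest value too came from vehicle replicate 2. In a fit without the filter Defb3 gave -0.83 for DNFB (limma adjusted p = 0.393) and -0.49 for BAC (0.627). In that fit Defb4 gave -0.14 for DNFB (limma adjusted p = 0.898) and 0.02 for BAC (0.987). A change of these genes was not detectable at signals of this height, which does not show that there was none.

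The array named 20 beta-defensin genes through 21 probe sets. Besides Defb1 and Defb6, Defb13 and Defb35 passed the filter, with highest signals of 83.6 and 85.4. The other 16 were not tested and had signals from 0.726 to 93.2 over all arrays.

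Slpi, the elastase inhibitor, rose after BAC. It read 1144, 1098 and 1186 in the DNFB arrays, 1511, 2640 and 2353 in the BAC arrays, and 650.3, 1516 and 637 in the vehicle arrays. Vehicle replicate 2 stood far above the other vehicle arrays and just above BAC replicate 1, so those groups overlapped, while all BAC arrays lay above all DNFB arrays. Slpi (Entrez gene 20568) averaged 2168 ± 587 after BAC and 935 ± 504 after the vehicle (SD, n = 3 each), a log2 change of 1.28 ± 0.26 or 2.43 times (limma adjusted p = 0.00384). After DNFB it averaged 1143 ± 43.9, a log2 change of 0.41 ± 0.26 that did not pass (limma adjusted p = 0.361). Without vehicle replicate 2 the change was 1.69 for BAC and 0.81 for DNFB, and the DNFB change then passed (adjusted p = 0.00785). Without vehicle replicate 1 or 3 the DNFB change of Slpi was 0.21 or 0.20 instead (adjusted p = 0.742 and 0.745). DNFB against BAC gave -0.88 ± 0.26 for Slpi and just missed the threshold (limma adjusted p = 0.0576). It passed without vehicle replicate 2 (adjusted p = 0.004), without vehicle replicate 3 (0.0484), without BAC replicate 1 (0.0276) and with a pseudocount of 64 (0.0497).

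Lyz2, the lysozyme gene of phagocytes, rose after both compounds. It read 7002, 7420.4 and 7696 in the DNFB arrays, 8307, 9012 and 9599 in the BAC arrays, and 5411, 6566 and 5351 in the vehicle arrays. The 3 groups did not overlap, with BAC highest and the vehicle lowest. Lyz2 (Entrez gene 17105) averaged 8972 ± 647 after BAC and 5776 ± 685 after the vehicle (SD, n = 3 each), a log2 change of 0.64 ± 0.10 or 1.56 times (limma adjusted p = 0.000695). After DNFB it averaged 7373 ± 349, a log2 change of 0.36 ± 0.10 (limma adjusted p = 0.0330). That call was lost without DNFB replicate 2 (adjusted p = 0.087) or 3 (0.106) and without vehicle replicate 1 (0.145) or 3 (0.123), with changes from 0.30 to 0.45 over all arrays left out. With quantile normalization the DNFB change of Lyz2 was 0.19 and did not pass (adjusted p = 0.154). DNFB against BAC gave -0.28 ± 0.10 and did not pass (limma adjusted p = 0.126).

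Lyz1 is a near-identical copy of Lyz2, so the array may not tell their transcripts apart and the lysozyme signal is uncertain in its source. The brightest Lyz1 probe set read 5444, 5099 and 6324 in the DNFB arrays, 7301, 8079 and 7474 in the BAC arrays, and 4741, 5219 and 3681 in the vehicle arrays. Its BAC arrays lay above all others, as those of Lyz2 did. In the fit over all probe sets this Lyz1 probe set changed by 0.76 after BAC (limma adjusted p = 0.00109) and by 0.31 after DNFB, which did not pass (0.133). Another Lyz1 probe set changed by 0.49 after BAC (limma adjusted p = 0.00769) and by 0.27 after DNFB (0.121). The dimmest, with signals from 53.9 to 122.3, changed by 0.01 after BAC (0.987).

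**Figure D2:**
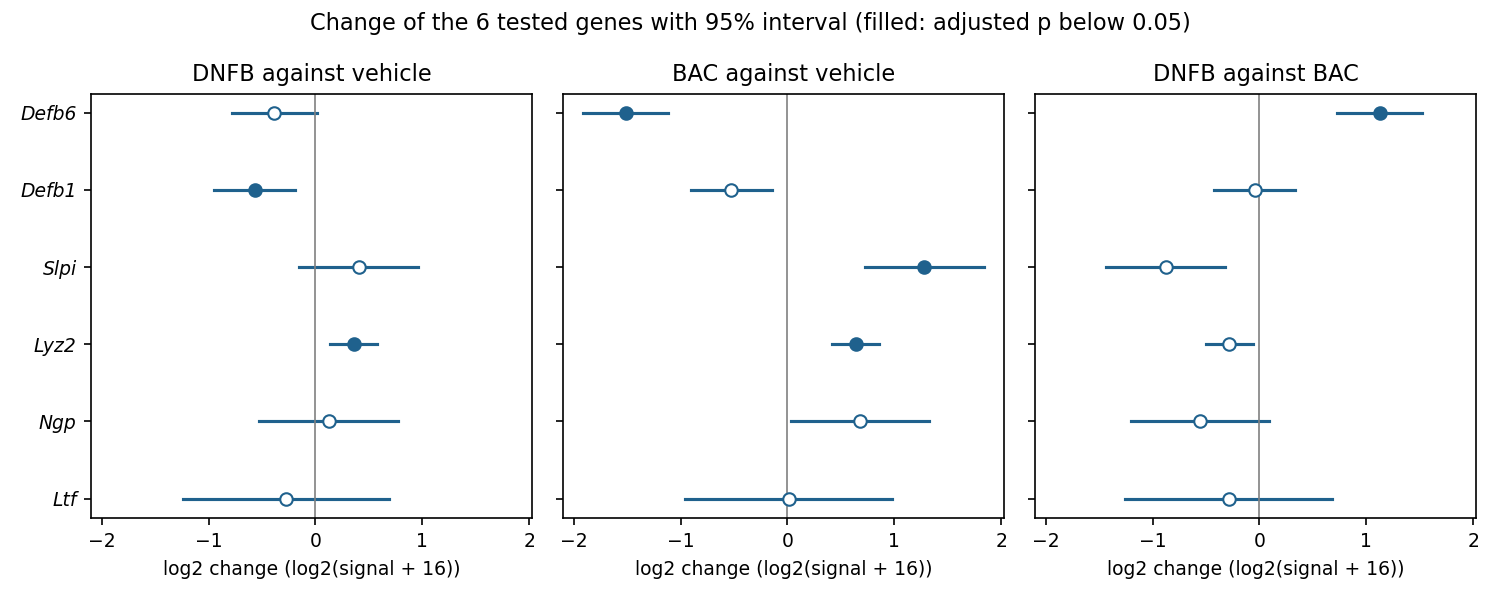
Log2 change of the 6 tested genes in each comparison (horizontal axis, log2(signal + 16) scale), with 95% intervals from limma over 3 arrays per treatment and filled points where the adjusted p was below 0.05. Defb6 lies at -1.51 for BAC against the vehicle and at -0.39 for DNFB against the vehicle, and Slpi and Lyz2 lie above 0 for both compounds.

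Of the neutrophil granule genes among the 9, Ngp and Ltf were tested and did not pass in any comparison, and Camp was too dim to be tested. Ngp (Entrez gene 18054), which encodes a granule protein related to cathelicidin, read 84.9, 43.2 and 64.7 in the DNFB arrays, 89.0, 110.1 and 99.2 in the BAC arrays, and 49.4, 50.9 and 69.2 in the vehicle arrays. All BAC arrays lay above all DNFB and vehicle arrays. Its log2 change was 0.68 ± 0.30 for BAC (limma adjusted p = 0.159) and 0.12 ± 0.30 for DNFB (0.848). Ltf (Entrez gene 17002), the gene of the iron-binding protein lactoferrin, read 16.9, 78.7 and 112.9 in the DNFB arrays, 84.2, 43.7 and 106.2 in the BAC arrays, and 53.8, 90.5 and 80.4 in the vehicle arrays. Its groups overlapped throughout, with log2 changes of -0.28 ± 0.45 for DNFB (limma adjusted p = 0.760) and 0.01 ± 0.45 for BAC (0.993). Camp (Entrez gene 12796) read 59.2, 2.33 and 11.8 in the DNFB arrays, 10.1, 3.69 and 37.7 in the BAC arrays, and 3.91, 2.81 and 3.2 in the vehicle arrays. It lay under the 40th percentile in all 9 arrays, and in the fit without the filter it gave 0.81 for DNFB (limma adjusted p = 0.388) and 0.65 for BAC (0.481).

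Markers of neutrophils moved strongly in the same arrays. Their summed signal was 14767 to 24841 in DNFB arrays, 25199 to 34781 in BAC arrays and 3885 to 9058 in vehicle arrays, with vehicle replicate 2 at the top of its group for S100a8 and S100a9. Of 10 tested markers 8 rose after DNFB and 10 after BAC, and no tested marker was at 0. Over all tested genes 6.76% rose after DNFB and 6.59% after BAC. Of 13 tested markers of monocytes and macrophages, 3 rose after DNFB (Cd14, Cd68 and Csf1r) and 3 after BAC (Cd14, Cd68 and Ccr2). The summed macrophage signal was 14369 to 16447 in DNFB arrays, 15207 to 16349 in BAC arrays and 12704 to 14849 in vehicle arrays. The part of either cell type in the changes of Slpi and Lyz2 was not tested.

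Many other genes of neutrophil granules passed. Of 17 tested, 9 rose and 1 fell after DNFB (58.8%, median log2 change 0.78). After BAC 10 rose and 1 fell (64.7%, median 1.15). Over all tested genes 13.8% passed after DNFB and 14.2% after BAC. As this list was chosen with earlier results of these data known, the shares do not test enrichment. The gene that fell was Orm1 each time, with log2 changes of -0.97 ± 0.11 for DNFB and -0.79 ± 0.11 for BAC. Mpo, Ctsg and Elane did not pass for either compound. Their signals were low: 60.9 to 107.9 for Mpo, 28.3 to 135.7 for Ctsg and 15.1 to 85.2 for Elane. A change of these genes may therefore have been missed, and Elane was at 1.20 ± 0.46 after DNFB (limma adjusted p = 0.105). Mmp8, the neutrophil collagenase, read 200.4, 231.8 and 234.5 in the DNFB arrays, 497, 402 and 483 in the BAC arrays, and 62.4, 84.7 and 100.1 in the vehicle arrays. No Mmp8 array overlapped between groups, and its log2 change was 1.29 ± 0.18 for DNFB (limma adjusted p = 0.000195) and 2.29 ± 0.18 for BAC (5.23e-07). Chil3, a chitinase-like protein, read 242.7, 223.2 and 264.4 in the DNFB arrays, 808, 819 and 1320.3 in the BAC arrays, and 97.2, 205 and 22.5 in the vehicle arrays, so that vehicle replicate 2 lay just below the DNFB arrays. Chil3 changed by 1.39 ± 0.42 after DNFB (limma adjusted p = 0.0381) and 3.30 ± 0.42 after BAC (7.02e-05). Pglyrp1, which binds bacterial peptidoglycan, rose by 1.26 ± 0.36 after DNFB and 1.15 ± 0.36 after BAC. Itgam, an integrin of phagocytes, rose by 1.99 ± 0.44 after BAC. Its change after DNFB, 0.84 ± 0.44, did not pass (limma adjusted p = 0.247). Between DNFB and BAC 0 were higher and 5 lower after DNFB by limma (9 at an unadjusted p under 0.05, in either direction). Over all tested genes 6.8% passed in this comparison (3.14% higher and 3.66% lower). Among the 5 was Lcn2, which withholds iron from bacteria, at -1.12 ± 0.23 (limma adjusted p = 0.0085). Against the vehicle Lcn2 rose after both compounds, by 0.86 ± 0.23 after DNFB and 1.98 ± 0.23 after BAC.

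Among other antimicrobial proteins of skin and mucosa, 8 of 22 tested genes rose and 5 fell after DNFB, and 10 rose and 3 fell after BAC. Their median log2 changes were 0.27 and 0.25. For each compound 59.1% passed, against 13.8% of all tested genes after DNFB and 14.2% after BAC. The list was chosen with earlier results of these data known, so this is no test of enrichment. S100a8, a subunit of the metal-binding protein calprotectin, read 4505, 5827 and 9429 in the DNFB arrays, 10349, 8444 and 12036 in the BAC arrays, and 487, 2565 and 464 in the vehicle arrays. It rose by 2.88 ± 0.46 after DNFB (limma adjusted p = 0.000498) and 3.58 ± 0.46 after BAC (7.07e-05), and its partner S100a9 by 3.03 ± 0.50 and 3.74 ± 0.50. Both S100 genes are also on the neutrophil marker list. Adm, the gene of the peptide adrenomedullin, rose by 1.31 ± 0.22 after DNFB (limma adjusted p = 0.00066) and 2.20 ± 0.22 after BAC (5.15e-06).

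Ccl20, a chemokine with antimicrobial activity, fell after DNFB and rose after BAC. It read 322.7, 96.4 and 147 in the DNFB arrays, 1485, 3738 and 2172 in the BAC arrays, and 836, 1377 and 363 in the vehicle arrays. All DNFB arrays lay below, and all BAC arrays above, all vehicle arrays. Ccl20 changed by -2.06 ± 0.43 after DNFB (limma adjusted p = 0.00468) and by 1.59 ± 0.43 after BAC (0.0228), and DNFB against BAC gave -3.65 ± 0.43 (8.13e-05). Between DNFB and BAC 1 gene of the list was higher and 7 were lower after DNFB. Over all tested genes 6.8% passed here (3.14% higher and 3.66% lower). Among the 7 were Plac8 at -1.26 ± 0.22 and Sprr2d, a cornified envelope protein, at -1.40 ± 0.33 on the log2 scale. Against the vehicle Plac8 rose after both compounds, by 0.71 after DNFB and 1.97 after BAC. Sprr2d changed by -1.50 after DNFB and did not pass after BAC.

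**Figure D3:**
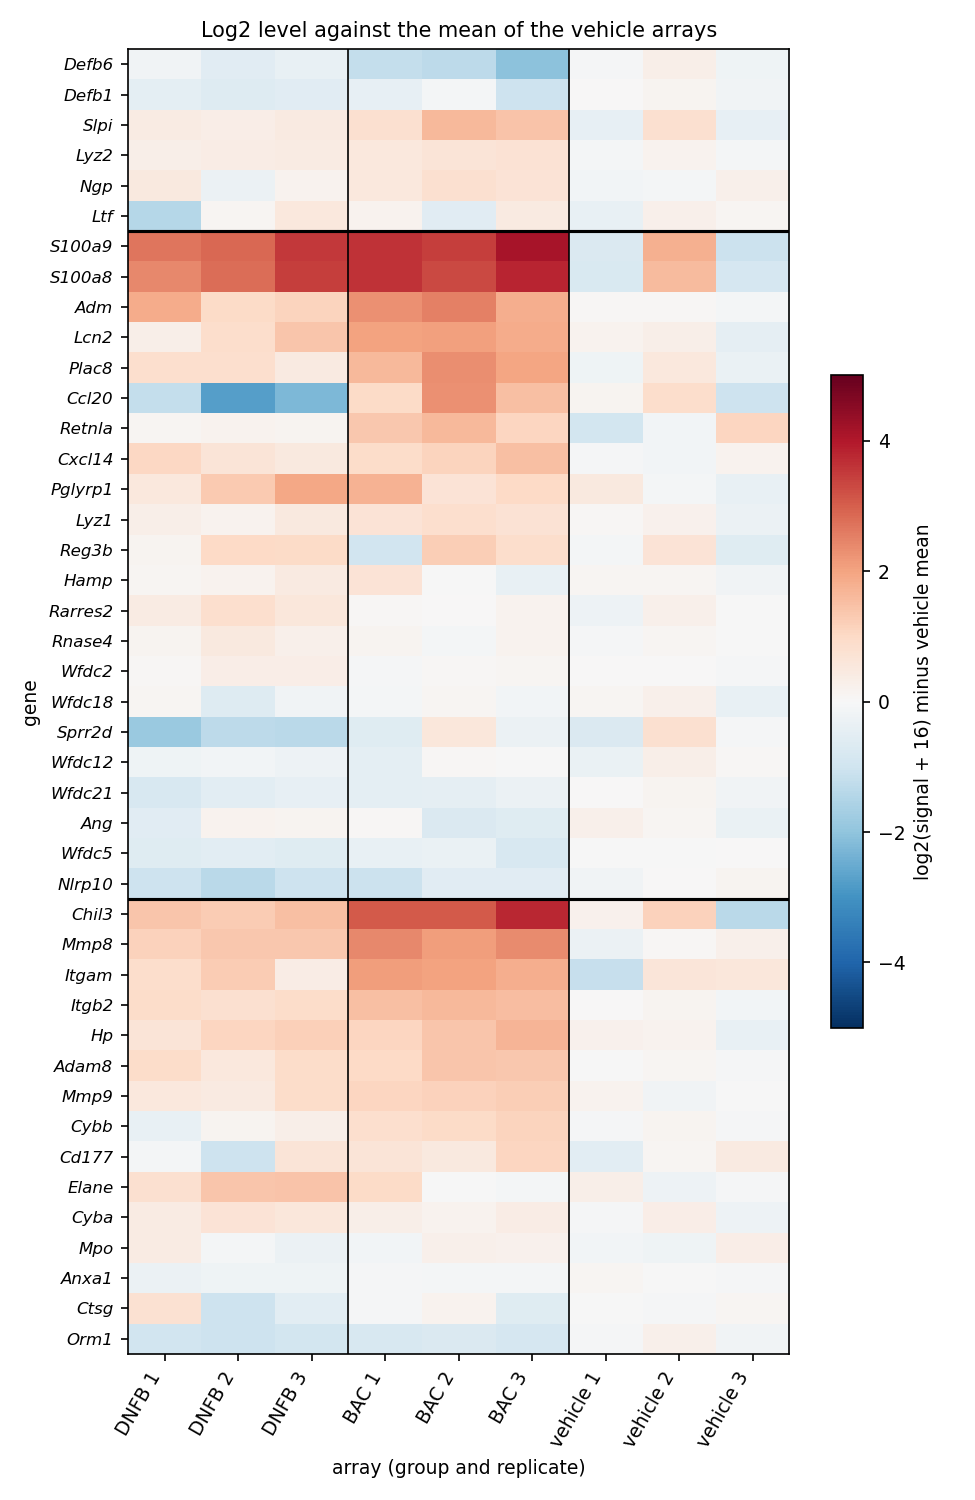
Heat map of log2(signal + 16) minus the mean of the vehicle arrays (colour, blue lower and red higher), with arrays in columns and genes in rows: the 6 tested genes on top, then other antimicrobial proteins, then neutrophil granule proteins not already shown. S100a8, S100a9, Chil3 and Mmp8 were high in all treated arrays, vehicle replicate 2 was the highest vehicle array for S100a8, S100a9 and Chil3, and Ccl20 was low in DNFB and high in BAC arrays.

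The cytokines and transcription factors known to act on epithelial antimicrobial genes moved widely. Of 20 tested, 10 rose and 5 fell after DNFB (75%, median log2 change 0.41). After BAC 11 rose and 2 fell (65%, median 0.75). Over all tested genes the shares that passed were 13.8% and 14.2%. These shares do not test enrichment, since the list was chosen with earlier results of these data known. Il6 read 2842, 2058 and 1753 in the DNFB arrays, 4834, 5498 and 5488 in the BAC arrays, and 157, 133 and 70.5 in the vehicle arrays. This cytokine rose by 4.07 ± 0.21 after DNFB (limma adjusted p = 1.38e-08) and 5.34 ± 0.21 after BAC (5.53e-10). Il1b, another inflammatory cytokine, rose by 2.51 ± 0.18 and 4.16 ± 0.18. Cebpd, a C/EBP transcription factor, rose by 0.86 ± 0.12 after DNFB and 1.97 ± 0.12 after BAC. Il22ra1, a subunit of the epithelial receptor for interleukin 22, fell by 1.44 ± 0.26 after DNFB (limma adjusted p = 0.00164). Its BAC arrays, at 135.3, 90.9 and 84.2, also lay below its vehicle arrays, at 222.5, 220.3 and 239.7. Between DNFB and BAC 0 were higher and 8 lower after DNFB by limma (12 at an unadjusted p under 0.05, in either direction). Cebpd was among the 8, at -1.10 ± 0.12. Over all tested genes 6.8% passed in this comparison (3.14% higher and 3.66% lower).

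Likeness of pattern was measured as the root mean square difference of log2 values, each centred on the gene's mean, over the 9 arrays. Nearest to Defb6 were Diras2 (0.274), Smim5 (0.276) and Asah2 (0.289). Nearest to Defb1 were Gpr160 (0.121), Slc34a2 (0.122) and Dus1l (0.123). Nearest to Slpi were Lcp2 (0.212), Tgm2 (0.223) and Chil1 (0.245), and nearest to Lyz2 were Kdm7a (0.0726), Arf6 (0.0777) and Pxn (0.0840). These distances describe the arrays and carry no test.

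**Figure D4:**
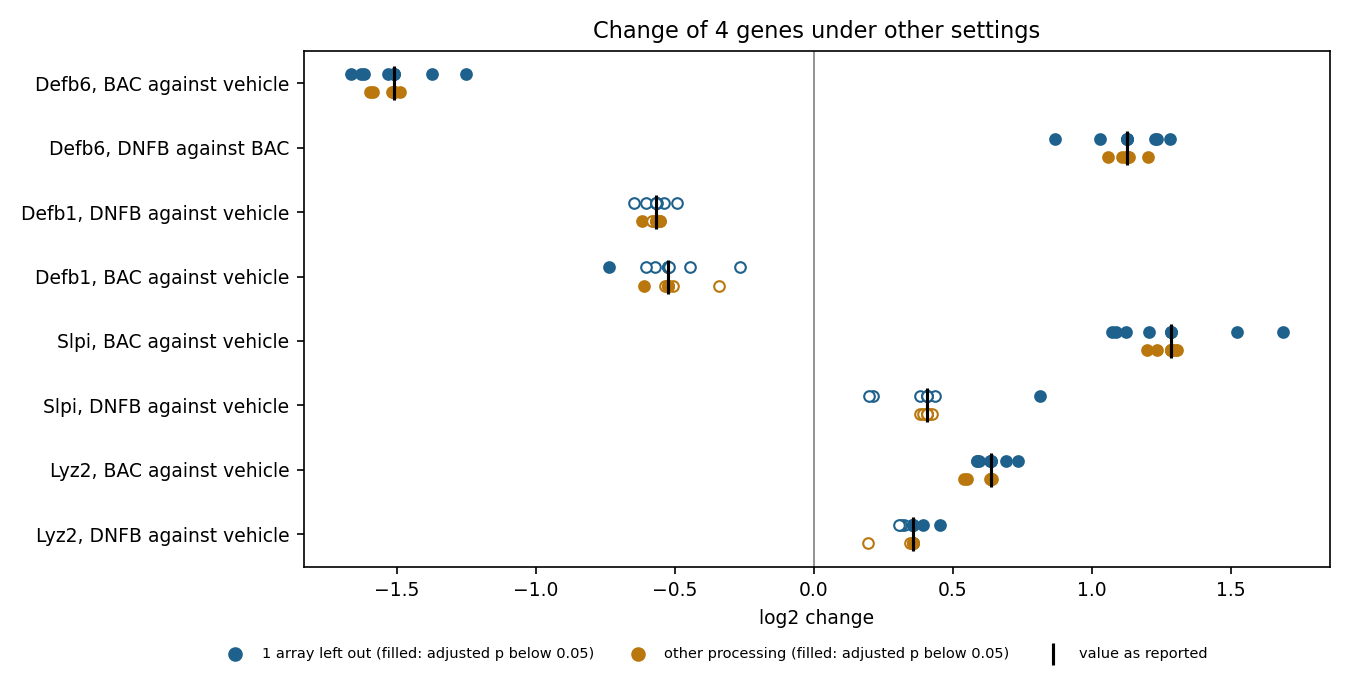
Log2 change (horizontal axis) of Defb6, Defb1, Slpi and Lyz2 with 1 array left out (blue) and under other processing (brown), filled where the adjusted p was below 0.05, with the reported value as a black bar. Defb6 stayed between -1.67 and -1.25 and filled for BAC against the vehicle, while Defb1 and Lyz2 after DNFB have open and filled points.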

How the data were processed

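RNA of mouse ear skin was hybridised to Affymetrix arrays, 3 per treatment. The deposited values are intensities, 1 MAS5 signal per probe set on a linear scale; the submitters' processing notes name MAS5 and the Affymetrix Expression Console, without versions. The mean signal without the highest and lowest 2% of probe sets was 250.001 in every array, and medians were 71.2 to 86.3. Detection calls and batches were not used. Groups came from the sample titles.

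Of 45101 probe sets, 64 were controls, 34945 had 1 symbol, 932 several and 9160 none. A gene was represented by its probe set with the highest mean. After the filter 14122 genes were tested with limma 3.58.1 (R 4.3.3) on log2(signal + 16), with an intensity trend and all 9 arrays in one fit, two-sided, with Benjamini-Hochberg adjustment over all tested genes calling genes under 0.05. Permuting 3 against 3 arrays exactly cannot go below 0.1 and was not done. The fit was also run on simulated data, with independent normal noise of the spread it had estimated. Such data meet the model's assumptions, so this does not test whether the arrays do. Genes named from a list were up to 3 with the largest change among those past the threshold, per comparison. The members and lists were chosen with earlier results of these data known, so their shares of calls do not test enrichment. The same-numbered arrays deviated with correlations from -0.122 to 0.153, which gives no sign of pairing by number but cannot exclude it. Alternatives changed the pseudocount, filter, normalization, trend, probe-set rule and replicate block, or left out single arrays.

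Further marker lists gave these calls by limma after DNFB and after BAC: fibroblast 1 and 0 of 6, endothelium 2 and 1 of 5, mast cell 3 and 0 of 5, hair follicle and sebaceous gland 0 and 0 of 9, and red blood cell 0 and 0 of 1. The shares of all tested genes called were 13.8% after DNFB and 14.2% after BAC. At an unadjusted p under 0.05 after BAC there was 1 fibroblast and 1 mast cell marker, after DNFB there were 3 hair follicle markers, and the other marker counts of 0 remained 0.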

Additional observations from a re-analysis of the deposited data

How the results depend on the processing

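The calls of Defb6, Slpi and Lyz2 after BAC, and of Defb6 between the compounds, were kept in all 19 alternatives, and the number of genes called after BAC stayed between 3 and 4. After DNFB the 2 calls became 0 with no filter on low values, with each array centred on its median or with no intensity trend (2 at an unadjusted p under 0.05 in limma each time). They became 1 with quantile normalization or at the probe-set level (there counting Defb1 by its brighter probe set; its second probe set passed), and 0 to 2 with single arrays left out (0 without DNFB replicate 2 or 3 or vehicle replicate 1 or 3). For DNFB against BAC the 1 call became 2 with a pseudocount of 64, with quantile normalization and with the replicate block, and 1 to 2 with single arrays left out. There was no sign that the replicate numbers pair the arrays: each array correlated best with its own number in 3 of 18 checks. This check cannot show that same-numbered arrays share no animal or batch. The block gave a call to Slpi for DNFB against BAC (adjusted p = 0.0263) and to Defb1 for BAC against the vehicle (0.036).

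The changes that turned sign had not passed. Without DNFB replicate 1, Ngp was -0.058 and Ltf 0.30 for DNFB against the vehicle, and Ltf was 0.29 for DNFB against BAC; with single arrays left out these ran from -0.058 to 0.33, from -0.68 to 0.30 and from -0.69 to 0.29. Ltf for BAC against the vehicle was -0.083 with quantile normalization and -0.076 with median centring, and ran from -0.21 to 0.31 with single arrays left out (-0.066 without BAC replicate 1, -0.21 without BAC replicate 3 and -0.17 without vehicle replicate 1). Defb1 for DNFB against BAC was 0.028 with median centring, and ran from -0.30 to 0.17 with single arrays left out (0.0023 without BAC replicate 1 and 0.17 without BAC replicate 2). The cause was not tested. Of 336 values, 296 kept direction and side of the threshold, 19 lost a call, 10 gained one and 11 turned sign. A filter at the 60th percentile gives no value for Ngp and Ltf.

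The 21 calls among other antimicrobial and granule genes after DNFB became 13 with no intensity trend; the 12 for DNFB against BAC became 5 with no trend, 7 without DNFB replicate 2 and 7 without BAC replicate 2. Over all tested genes the 1955 calls after DNFB became 1202 with no trend, 3130 at the probe-set level, and 1276 and 1249 without vehicle replicates 1 and 3. The 2009 after BAC became 3045 at the probe-set level and 1225 without vehicle replicate 1. The 961 for DNFB against BAC became 402 with no trend, 1487 at the probe-set level, 608 and 571 without DNFB replicates 2 and 3, and 513 without BAC replicate 2.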

Other observations

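Genes that process or receive antimicrobial peptides, or that control their proteases, also changed. Of 17 tested, 2 rose and 5 fell after DNFB, and 4 rose and 3 fell after BAC. Between DNFB and BAC 1 was higher and 5 were lower. Over all tested genes 13.8%, 14.2% and 6.8% passed in these comparisons. This list too was chosen with earlier results of these data known, so the counts do not test enrichment. Spink5, which inhibits the kallikreins of the epidermis, read 1571, 1836 and 2174 in the DNFB arrays, 2463, 2931 and 1882 in the BAC arrays, and 4101, 4796 and 3504 in the vehicle arrays. All treated arrays lay below all vehicle arrays, and Spink5 fell by 1.15 ± 0.16 on the log2 scale after DNFB (limma adjusted p = 0.000187). Klk6, a kallikrein protease, read 482, 352 and 413 in the DNFB arrays, 735, 1130.4 and 783 in the BAC arrays, and 675, 1242 and 824 in the vehicle arrays. It fell by 1.07 ± 0.21 after DNFB (limma adjusted p = 0.00231) and was lower after DNFB than after BAC, at -1.04 ± 0.21 (0.00614).

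Among the receptors of this list Fpr2, Tlr2 and Ccr2 rose after BAC. Fpr2, a formyl peptide receptor that in humans also binds the cathelicidin peptide, rose by 1.27 ± 0.23 after DNFB (limma adjusted p = 0.00131) and 2.21 ± 0.23 after BAC (7.96e-06). Tlr2, a receptor for bacterial lipoproteins, rose by 1.34 ± 0.16 after BAC (limma adjusted p = 4.81e-05), and DNFB against BAC gave -1.29 ± 0.16. Ccr2, a chemokine receptor of monocytes, rose by 1.14 ± 0.23 after BAC (limma adjusted p = 0.00319).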
